A study of Mus musculus with 48 samples.

Results

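The collagen genes analysed were all rows of 6 mouse tissue tables whose symbol was Col, a number, the letter a and a number, which names one chain of one collagen type. These were 39 genes of the 15541 listed in any tissue. The GENCODE M21 annotation holds 44 genes of that form, and Col2a1, Col9a2, Col10a1, Col25a1 and Col26a1 were in none of the tables. The tables listed 22 collagen genes of 11843 genes in the liver, 35 of 13413 in subcutaneous white adipose tissue (WAT), 34 of 12016 in gastrocnemius muscle, 11 of 10907 in the duodenum, 11 of 11021 in the jejunum and 5 of 10777 in the ileum. Col11a2, Col15a1, Col18a1 and Col20a1 were listed in all 6 tissues.

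The mice were C57Bl6 males made obese by a high fat diet. They underwent Roux-en-Y gastric bypass (RYGB), which connects a small pouch of stomach with the jejunum and leaves the duodenum out of the path of food, or a sham operation. Both groups received an elemental liquid diet after surgery, and tissues were taken 9 days later, at 10 am after a fast overnight. The age of the mice was not given in the sources used here. The 48 libraries held 4 RYGB and 4 sham samples for liver, WAT and muscle, 3 RYGB and 4 sham samples for the duodenum and the jejunum, and 5 of each for the ileum. The gut samples were villi scraped off after ice-cold EDTA, and so were not the whole gut wall. Nothing in the labels states that libraries of one group came from separate animals, and p-values therefore measure the spread between these samples, which may be technical.

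Collagens are the main structural proteins of the extracellular matrix, and each molecule is a triple helix of 3 chains. The fibrillar collagens I, III and V form the cables of interstitial matrix, collagen IV forms the mesh of basement membranes, and collagen VI forms beaded filaments around cells. Fibril-associated collagens such as XII, XIV and XVI decorate fibrils, the multiplexins XV and XVIII sit in basement membrane zones, and fibroblasts, stellate cells, pericytes and endothelial cells are well-known sources of these chains. Collagen type XVIII is also made by hepatocytes, and its carboxyl end can be released as endostatin.

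Values were CPM, read counts of a gene scaled to one common total per library, and were tested with limma on log2(CPM + 1) within each tissue, so that a difference of a gene at a few CPM is understated. A gene was called at an adjusted p under 0.05 and a change of at least 1.5-fold. The median difference of all genes tested was 0.13 in the liver, 0.11 in WAT and 0.12 in the duodenum, and scaling the libraries by their median ratio brought it to -0.006, 0.002 and 0.005. With that scaling, the share of all calls that were higher in RYGB went from 81.8% to 66.6% in the liver, from 61.8% to 50.3% in WAT and from 27.1% to 46.3% in the ileum. The labelled tissues carried their defining genes, since the summed level of 6 markers was 83300 to 120000 CPM for hepatocytes in the liver, 6440 to 20100 CPM for adipocytes in WAT and 106000 to 178000 CPM for muscle fibres in muscle. Enterocyte markers summed to 30100 CPM or more in every gut library. In such bulk samples, fewer cells of a type and less RNA per cell cannot be told apart.

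WAT was by far the tissue with the most collagen RNA. The listed collagen genes summed to 8779 to 22770 CPM in sham WAT, to 1400 to 1504 CPM in sham liver and to 722.4 to 1818 CPM in sham muscle. In sham villi the sums were 18.8 to 47.2 CPM in the duodenum, 18.6 to 35.2 CPM in the jejunum and 21.9 to 36.1 CPM in the ileum. After RYGB the sums were 1500 to 1871 CPM in the liver, 2948 to 10230 CPM in WAT and 640.9 to 1432 CPM in muscle. In the duodenum all 3 RYGB libraries, at 68.4 to 93.6 CPM, stood above the 4 sham libraries, whereas the groups overlapped in the other 5 tissues. The tables were normalized separately, and levels were not tested between tissues.

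**Figure D1:**
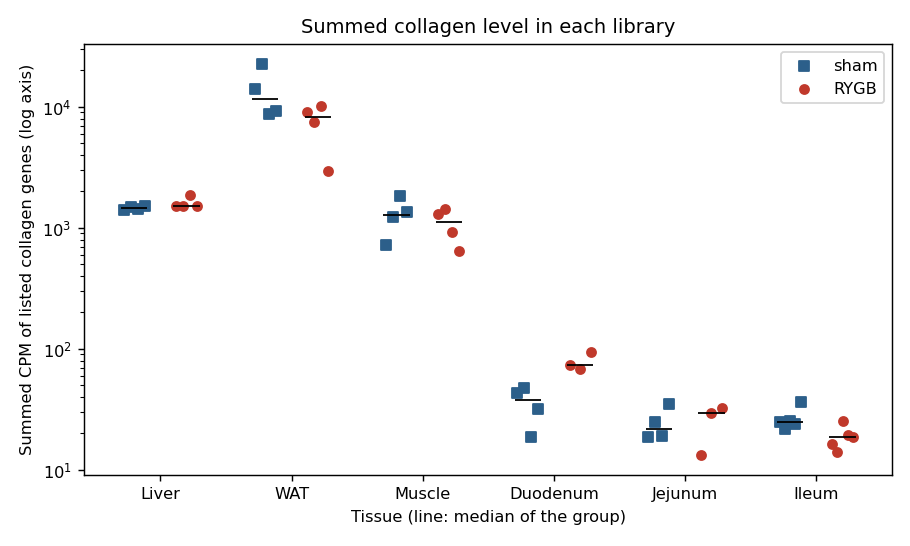
Summed CPM of all listed collagen genes in each library on a log axis, by tissue, with sham as blue squares, RYGB as red circles and a line at the group median. WAT reached 22770 CPM in a sham library, whereas no gut library was above 93.6 CPM, and in the duodenum the RYGB libraries lay above the sham libraries.

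The order of the chains differed between tissues. Per kilobase of the longest protein-coding transcript, Col18a1 led in sham liver at 177 ± 11.8 CPM per kb (SD, n = 4), followed by Col5a3 at 13.7 ± 2.11, Col3a1 at 11.6 ± 4.62 and Col14a1 at 11.3 ± 1.94 CPM per kb. The last 3 did not differ beyond their spread, while Col18a1 was far above them. The multiplexins, nearly all of it Col18a1, made 69.2% of the summed collagen CPM in sham liver. The fibrillar group, with Col1a1, Col1a2 and Col3a1 as its main chains, made 59.6% in sham WAT and 53.4% in sham muscle. Col3a1, the single chain of collagen III, was first in sham WAT at 624 ± 482 and in sham muscle at 49.6 ± 25.5 CPM per kb, with an SD wider than its distance to Col1a2 at 327 ± 207 and 30.5 ± 10.0 CPM per kb.

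Villi had another order, led by chains that are minor in the other organs. Col20a1, a fibril-associated chain, was at 1.22 ± 0.172 CPM per kb in sham jejunum and at 1.95 ± 0.395 CPM per kb in sham ileum. Col7a1, the chain of the anchoring fibrils under epithelia, followed at 0.886 ± 0.224 and 1.21 ± 0.444 CPM per kb. In sham duodenum Col7a1 at 1.12 ± 0.449, Col20a1 at 0.964 ± 0.632 and Col18a1 at 0.920 ± 0.435 CPM per kb did not differ beyond their spread. With the union of all annotated exons as length, Col18a1 stayed first in the liver, and Col1a2 dropped from rank 2 to rank 5 in WAT and muscle.

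Whether these chains differed between RYGB and sham at 9 days was asked within each tissue. In the liver 5 of 22 collagen genes were called higher (22.7%, against 5.79% of all 11807 genes tested) and 2 were called lower (9.09%, against 1.29%). In WAT 3 of 35 were called higher (8.57%, against 14.9% of 13379 genes) and 7 were called lower (20%, against 9.23%). The median difference of the collagen genes was 0.57 in the liver and -0.72 in WAT on the log2 scale. The difference between the tissues was not tested. All RYGB libraries lay above all sham libraries for 5 collagen genes in the liver (background 13.4% of all genes) and 3 in WAT (26.1%), and below them for 2 in the liver (3.05%) and 10 in WAT (15.0%). No collagen gene was called in muscle or in the 3 gut segments. In muscle none of all genes was called (0% higher and 0% lower), and in the duodenum 1 gene was, with 0% higher and 0.00922% lower. In the jejunum 4.62% of all genes were called higher and 5.13% lower, and in the ileum 1.64% were called higher and 4.42% lower.

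**Figure D2:**
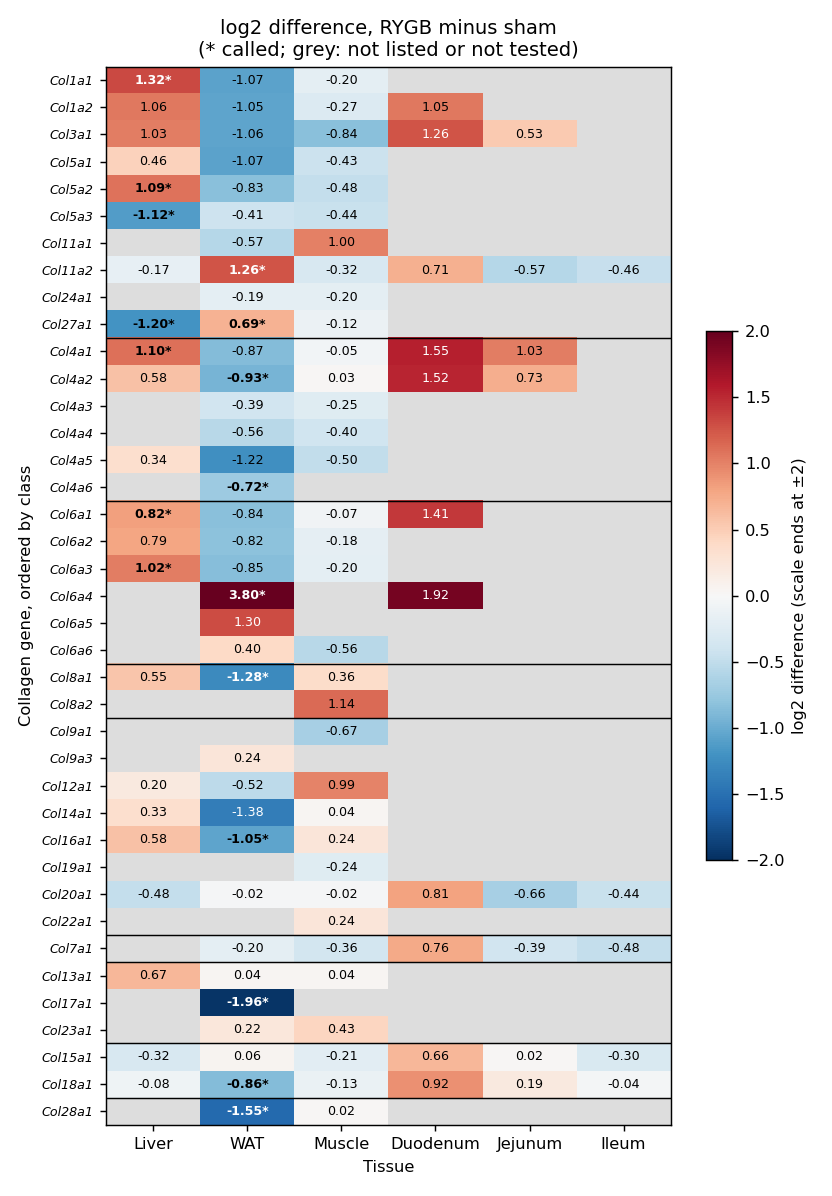
Difference RYGB minus sham on the log2(CPM + 1) scale for each of the 39 collagen genes (rows, ordered by class with lines between classes) in the 6 tissues (columns), where red is higher and blue is lower in RYGB, a star for called genes and grey for genes not listed or not tested. The liver column is red in 16 of 22 genes (72.7%, beside 71.0% of all genes tested) and the WAT column is blue in 26 of 35 (74.3%, beside 41.0%).

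In the liver, Col1a1, Col4a1, Col5a2, Col6a1 and Col6a3 rose after RYGB, and the minor fibrillar chains Col5a3 and Col27a1 fell. Col4a1, which with Col4a2 makes the common form of collagen IV, was at 88.9, 154.1, 122.6 and 89.6 CPM in RYGB replicates 1 to 4 and at 33.8, 56.7, 68.8 and 51.2 CPM in sham replicates 1 to 4. Every RYGB library was above every sham library, and the gene rose by 1.10 ± 0.23 (log2, SE; adjusted p = 0.0181, limma). Col4a2 was at 49.6, 67.1, 57.9 and 39.3 CPM in RYGB and at 25.9, 39.1, 42.0 and 34.4 CPM in sham, with overlap, and its difference of 0.58 ± 0.18 was not called (adjusted p = 0.0737). Among libraries of one lane tag, the Col4a1 difference was between 0.64 and 1.60 in 3 lanes. The call of Col4a1 was lost without RYGB replicate 3 (adjusted p = 0.0608).

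Col1a1, one of the chains of collagen I, was at 32.2, 26.2, 64.9 and 23.2 CPM in RYGB and at 7.9, 9.9, 23.6 and 14.6 CPM in sham. RYGB replicate 3 was the highest of its group and sham replicate 3 of its own, and that sham library was just above the lowest RYGB library. Col1a1 rose by 1.32 ± 0.35 (adjusted p = 0.0429), with 0.47 to 2.17 within lanes. Its partner Col1a2 was at 48.9, 38.8, 96.3 and 36.5 CPM in RYGB and at 18.4, 18.6, 37.7 and 24.8 CPM in sham, a difference of 1.06 ± 0.30 that was not called (adjusted p = 0.0534). Col3a1 was at 115.9, 103.8, 209.8 and 95.7 CPM in RYGB and at 36.5, 53.2, 96.2 and 72.7 CPM in sham (1.03 ± 0.30, adjusted p = 0.0584). For each of these 3 genes, sham replicate 3 reached into the RYGB range. RYGB replicate 3 was the highest library for all of them.

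Col5a2, a chain of the minor fibrillar collagen V that is built into collagen I fibrils, was at 10.4, 12.7, 21.6 and 12.0 CPM in RYGB and at 3.1, 5.3, 8.7 and 7.9 CPM in sham. The groups did not overlap, and Col5a2 rose by 1.09 ± 0.28 (adjusted p = 0.0396). Col5a1, its usual partner, was at 14.0, 14.0, 24.8 and 13.2 CPM in RYGB and at 9.1, 10.2, 15.3 and 11.4 CPM in sham, with a difference of 0.46 ± 0.21 (adjusted p = 0.186). Here RYGB replicate 3 stood alone above the other libraries. Col16a1, a fibril-associated chain, also had every RYGB library above every sham library, at 4.7 to 9.3 against 3.4 to 4.3 CPM, without being called (0.58 ± 0.18, adjusted p = 0.0704).

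Of the 3 listed chains of collagen VI in the liver, 2 rose. Col6a1 was at 20.4, 17.3, 25.7 and 14.7 CPM in RYGB and at 9.4, 9.1, 10.9 and 12.7 CPM in sham, and it rose by 0.82 ± 0.17 (adjusted p = 0.0196). Col6a3, the largest chain, was at 23.8, 19.1, 42.7 and 17.0 CPM in RYGB and at 9.9, 8.9, 13.0 and 14.4 CPM in sham, and it rose by 1.02 ± 0.26 (adjusted p = 0.0364). For both genes all RYGB libraries were above all sham libraries. Col6a2 was at 8.0 to 18.6 CPM in RYGB and 5.1 to 8.8 CPM in sham, with overlap (0.79 ± 0.23, adjusted p = 0.0595). Within lanes the differences were 0.52 to 1.08 for Col6a1 and 0.45 to 1.36 for Col6a3.

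Col5a3, the third chain of collagen V, was at 38.6, 33.3, 38.9 and 40.2 CPM in RYGB and at 98.3, 89.9, 69.3 and 77.4 CPM in sham. The highest RYGB library was far below the lowest sham library, and the gene fell by 1.12 ± 0.13 on the log2 scale (adjusted p = 0.00126). Col27a1, a fibrillar chain with a short triple helix best known from cartilage, was at 14.9, 18.5, 17.8 and 10.1 CPM in RYGB and at 51.0, 25.8, 30.8 and 40.1 CPM in sham. Again the groups did not overlap, and Col27a1 fell by 1.20 ± 0.23 (adjusted p = 0.0138). Differences within lanes were -1.29 to -1.11 for Col5a3 and -1.85 to -0.75 for Col27a1.

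Col18a1, the most abundant collagen RNA of the liver, was at 930.7, 884.9, 939.2 and 992.7 CPM in RYGB and at 994.0, 1053.8, 898.7 and 1014.3 CPM in sham. The groups overlapped and the difference was -0.08 ± 0.12 (adjusted p = 0.696). Its annotated span overlaps that of Slc19a1 on the opposite strand, and whether counting used the strand was not given in the sources used here. The related multiplexin Col15a1 was at 11.1 to 18.2 CPM in RYGB and 7.7 to 24.8 CPM in sham (-0.32 ± 0.31, adjusted p = 0.533). Col18a1 made most of the summed collagen CPM of the liver, and the sums of other classes were apart from it. Type IV collagen genes alone summed to 131.2 to 224.4 CPM in RYGB and 60.8 to 112.8 CPM in sham, and type VI genes to 39.7 to 87.0 and 23.1 to 35.9 CPM. Fibrillar genes, the larger class, overlapped at 231.7 to 475.0 CPM in RYGB and 214.8 to 283.1 CPM in sham. Fibril-associated genes also overlapped, at 80.0 to 157.7 and 68.1 to 99.6 CPM.

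**Figure D3:**
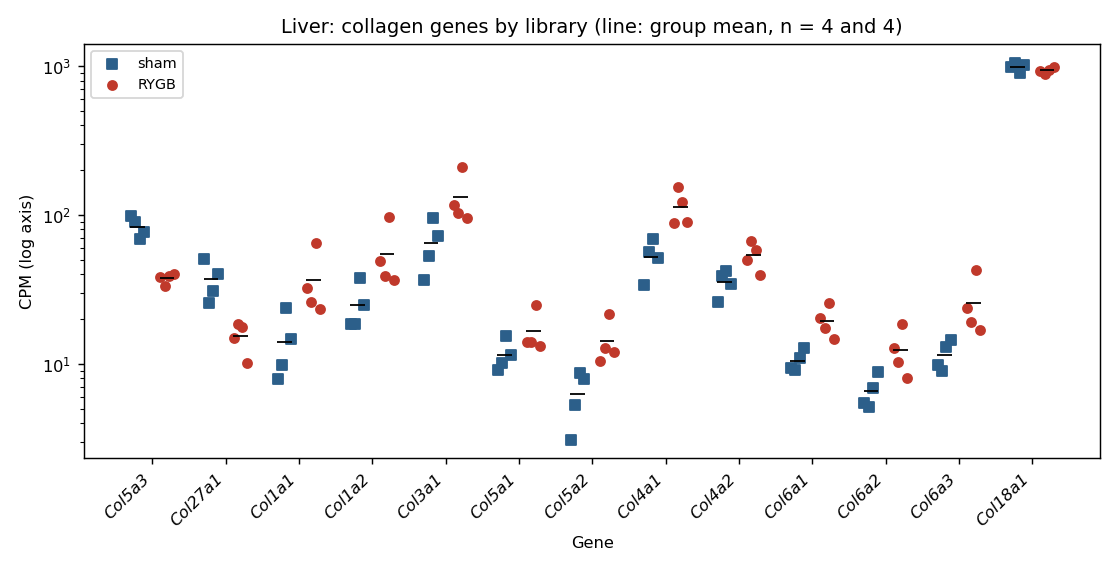
CPM of 13 collagen genes in each liver library on a log axis, with sham as blue squares, RYGB as red circles and a line at the group mean. Col5a3 and Col27a1 lie lower in all RYGB libraries, Col4a1, Col5a2, Col6a1 and Col6a3 lie higher, and Col18a1 near 1000 CPM overlaps.

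The number of liver calls moved with single libraries. It was 7 with all libraries. The count was 2 when RYGB replicate 3 was left out (0 higher and 2 lower), 3 when sham replicate 1 or sham replicate 2 was (1 higher and 2 lower), and 4 when sham replicate 4 was (2 higher and 2 lower). Col5a3 and Col27a1 were called in each of these fits. Where calls of Col1a1, Col5a2, Col6a1 and Col6a3 were lost, adjusted p was 0.0511 to 0.114, 0.0535 to 0.109, 0.0527 to 0.0565 and 0.0523 to 0.0974. With median-ratio scaling 4 genes were called, 2 higher and 2 lower.

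Markers of collagen-making cells varied between the same livers. Stellate cell markers summed to 224 to 344 CPM in RYGB and 220 to 230 CPM in sham over 6 of 6 genes listed, with RYGB replicate 3 at 344 CPM. Endothelial markers summed to 156 to 264 against 72.7 to 191 CPM over 7 of 7 genes, and fibroblast markers to 163 to 254 against 146 to 211 CPM over 6 of 8 genes, with none of these genes at 0 in a library. Most of the fibroblast sum was Dpp4, with a mean of 147 CPM in RYGB and 146 CPM in sham. Of these 3 lists, Pdgfra was called higher (0.89), and the other genes were not called. Smooth muscle and pericyte markers, of which 4 of 6 were listed and none was at 0, summed to 73.9 to 136 CPM in RYGB and 71.6 to 96.1 CPM in sham. One of them, Tagln, was called higher (1.10 ± 0.24, adjusted p = 0.0221), at 10.2 to 23.4 CPM in RYGB and 4.9 to 9.3 CPM in sham. Macrophage markers summed to 529 to 1460 CPM in RYGB and 211 to 398 CPM in sham over 6 of 6 genes, none at 0, and Lyz2 (1.81) and Cd68 (1.03) were called higher. Cd163 alone had a negative difference (-0.65), which was not called. The part of these cells in the collagen differences was not tested.

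Genes that make and mature collagen had calls in one direction in the liver. Of 27 tested genes for collagen synthesis and maturation, 5 were called higher and 0 lower, where 5.79% of all genes were called higher and 1.29% lower. Serpinh1, the chaperone that holds the triple helix in the cell, was at 20.1 to 44.0 CPM in RYGB and 11.1 to 19.2 CPM in sham (0.92 ± 0.23, adjusted p = 0.0359). The crosslinking oxidases Lox (0.90 ± 0.25, adjusted p = 0.0471) and Loxl2 (0.81 ± 0.21, adjusted p = 0.0413) and the propeptidase gene Adamts14 (1.06 ± 0.22, adjusted p = 0.0181) were called as well. The median of this list was 0.50, beside 0.13 for all genes.

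Of 7 genes of collagen degradation 2 rose, Mmp14, a membrane collagenase, by 0.85 ± 0.14 and Timp1, an inhibitor of such proteases that was at 1.0 to 3.7 CPM in RYGB and at 0.1 to 0.4 CPM in sham, by 1.37 ± 0.28. Of 12 fibril partners 3 rose, which were Thbs1 (1.20 ± 0.26), the small proteoglycan Lum (1.13 ± 0.23) and Bgn (0.67 ± 0.15). Of 12 basement membrane partners 2 rose, the linker nidogen Nid1 (1.02 ± 0.24) and the laminin chain Lamb1 (0.64 ± 0.17). The collagen receptor Ddr1 rose by 1.24 ± 0.21, the one call among 6 receptors, and 2 of 15 genes of TGF-beta signalling rose, the ligand Tgfb1 (1.09 ± 0.28) and the receptor Tgfbr1 (0.60 ± 0.16). No gene of these 6 lists was called lower in the liver.

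Promoters are shown for chains with differences of either sign in the liver, namely Col1a2 and Col3a1, the head-to-head pair Col4a1 and Col4a2, and Col5a3, which fell. The sequences are RefSeq windows on GRCm38.p6 from 250 bases before to 50 bases after the gene start, 5′ to 3′ on the strand of the gene, and 32 of the 39 collagen genes had a window. Capitals mark, on either strand, the TATA box letters TATAAA, the CAAT box letters CCAAT and the GC box letters GGGCGG. The windows are chr6:4505368-4505667 (+) for Col1a2, chr1:45311288-45311587 (+) for Col3a1, chr8:11312777-11313076 (-) for Col4a1, chr8:11312555-11312854 (+) for Col4a2 and chr9:20815018-20815317 (-) for Col5a3.
Col1a2: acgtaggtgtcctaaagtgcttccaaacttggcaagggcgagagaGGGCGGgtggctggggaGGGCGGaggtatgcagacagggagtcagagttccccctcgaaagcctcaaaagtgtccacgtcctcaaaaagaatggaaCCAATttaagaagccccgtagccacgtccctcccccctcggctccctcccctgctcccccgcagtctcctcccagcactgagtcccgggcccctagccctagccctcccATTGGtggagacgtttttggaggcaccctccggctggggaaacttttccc
Col3a1: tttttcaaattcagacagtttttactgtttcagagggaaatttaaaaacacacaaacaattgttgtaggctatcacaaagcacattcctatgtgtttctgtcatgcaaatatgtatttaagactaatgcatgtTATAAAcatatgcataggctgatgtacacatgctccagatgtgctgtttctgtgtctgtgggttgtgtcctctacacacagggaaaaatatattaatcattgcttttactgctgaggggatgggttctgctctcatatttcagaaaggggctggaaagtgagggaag
Col4a1: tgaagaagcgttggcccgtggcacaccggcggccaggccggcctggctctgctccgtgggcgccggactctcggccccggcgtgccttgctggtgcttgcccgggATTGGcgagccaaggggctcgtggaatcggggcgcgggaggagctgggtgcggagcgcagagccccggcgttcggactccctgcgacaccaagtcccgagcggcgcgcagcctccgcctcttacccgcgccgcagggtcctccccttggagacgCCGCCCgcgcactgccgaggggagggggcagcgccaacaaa
Col4a2: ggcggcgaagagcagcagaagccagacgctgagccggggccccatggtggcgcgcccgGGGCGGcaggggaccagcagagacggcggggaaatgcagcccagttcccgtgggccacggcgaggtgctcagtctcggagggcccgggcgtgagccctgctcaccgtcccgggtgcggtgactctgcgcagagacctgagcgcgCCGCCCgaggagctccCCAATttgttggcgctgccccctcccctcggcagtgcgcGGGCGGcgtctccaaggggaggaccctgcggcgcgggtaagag
Col5a3: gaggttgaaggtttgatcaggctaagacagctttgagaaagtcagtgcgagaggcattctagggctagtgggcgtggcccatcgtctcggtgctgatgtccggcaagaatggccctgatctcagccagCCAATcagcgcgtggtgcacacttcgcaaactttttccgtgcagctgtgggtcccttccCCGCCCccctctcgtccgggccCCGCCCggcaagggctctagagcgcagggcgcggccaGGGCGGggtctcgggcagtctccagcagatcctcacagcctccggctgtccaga

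The Col4a1 and Col4a2 windows share 78 bases. The genes lie on opposite strands, and their annotated 5′ ends overlap by 22 bases. TATAAA was in the Col3a1 window, 117 bases before its start, and in none of the other 4. CCAAT was in the windows of Col1a2, Col4a1, Col4a2 and Col5a3, and GGGCGG in those same 4. Of 32851 windows of this length in the table, 13.6% held TATAAA, 37.4% held CCAAT and 35.7% held GGGCGG. These matches describe letters and not binding, and Col5a3, which fell, held the same pair of motifs as Col4a1, which rose.

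In WAT, Col4a2, Col4a6 and Col18a1 of basement membranes fell after RYGB, as did Col8a1, Col16a1, Col17a1 and Col28a1, and Col6a4, Col11a2 and Col27a1 rose. The libraries of WAT stood apart in other genes too, which are given here first. B cell markers summed to 809 to 2090 CPM in RYGB and to 6.7 to 16.3 CPM in sham over 6 of 6 genes, all 6 called higher, with RYGB replicate 4 the highest at 2090 CPM. Adipocyte markers summed to 6440 to 12100 CPM in RYGB and 13600 to 20100 CPM in sham, with RYGB replicate 4 the lowest. All 6 had a negative difference, and 1 of 6, Lep (-1.38), was called. Fabp4, with the highest level of them, overlapped at 4046.5 to 7613.9 CPM in RYGB and 7498.3 to 14430.8 CPM in sham and was not called. Endothelial markers summed to 1090 to 1660 CPM in RYGB and 2010 to 3220 CPM in sham, and 7 of 7 were called lower. Keratinocyte markers, of which 3 of 6 were listed, summed to 118, 54.0 and 144 CPM in sham replicates 1 to 3, to 3.6 CPM in sham replicate 4 and to 2.2 to 2.6 CPM in RYGB, where Krt5 was at 0.0 to 0.1 CPM.

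Among the stromal markers of WAT, Thy1 alone was called higher. Fibroblast markers, 8 of 8 listed, summed to 780 to 1630 CPM in RYGB and 1070 to 2260 CPM in sham. Of their differences 6 were negative and 2 positive, with Thy1 called higher (1.71) and Pdgfrb called lower (-0.70). Smooth muscle and pericyte markers, 6 of 6 listed, summed to 466 to 733 CPM in RYGB and 570 to 1490 CPM in sham, with Acta2 called lower (-0.79). Macrophage markers, 6 of 6 listed, summed to 1570 to 2150 CPM in RYGB and 1680 to 3020 CPM in sham, and Adgre1 (-1.19), Cd68 (-1.09) and Mrc1 (-1.17) were called lower. Lyz2 had the highest level of them, with a mean of 1200 CPM in RYGB and 1070 CPM in sham. Its difference was positive (0.23) and not called, and Csf1r (-0.48) and Cd163 (-1.19) were not called either. No gene of these 3 lists was at 0 in a library, and the part of any of these cells in the collagen differences was not tested.

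Col6a4, a long chain related to Col6a3, had the largest collagen difference in any tissue. It was at 9.1, 11.8, 15.7 and 37.6 CPM in RYGB and at 0.2, 0.4, 0.2 and 0.1 CPM in sham. The sham libraries were near the step of 0.1 CPM in which values were given, and the RYGB libraries were all far above them, with replicate 4 the highest. Col6a4 rose by 3.80 ± 0.37 on the log2(CPM + 1) scale (adjusted p = 0.000289), and by 3.50 and 5.13 within the 2 lanes that held both groups. The order of the 4 RYGB libraries by Col6a4 was also their order by summed B cell markers, at 809, 1250, 1540 and 2090 CPM, and the part of these cells was not tested.

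Col11a2, a minor fibrillar chain, was at 6.2, 7.9, 6.6 and 12.6 CPM in RYGB and at 2.8, 2.1, 3.0 and 3.3 CPM in sham. Col27a1 was at 27.6, 31.6, 33.0 and 35.3 CPM in RYGB and at 22.2, 16.8, 16.3 and 22.7 CPM in sham. For both genes the groups did not overlap and RYGB replicate 4 was the highest library. Col11a2 rose by 1.26 ± 0.22 (adjusted p = 0.00425) and Col27a1 by 0.69 ± 0.14 (adjusted p = 0.00786), and within lanes Col11a2 differed by 1.26 to 1.66 and Col27a1 by 0.61 to 0.71. With median-ratio scaling Col27a1 fell short of the fold needed for a call, at 0.584. Col6a5, next to Col6a4 on chromosome 9, was at 4.1 to 12.7 CPM in RYGB and at 0.3 to 8.8 CPM in sham, with overlap, and was not called (1.30 ± 0.57, adjusted p = 0.0974).

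Among the lower chains, Col16a1 was at 22.6, 32.2, 28.2 and 18.7 CPM in RYGB and at 52.0, 67.4, 37.5 and 58.1 CPM in sham. The groups did not overlap, and Col16a1 fell by 1.05 ± 0.21 (adjusted p = 0.00786). Col8a1, a network-forming chain of vessel walls, was at 9.5, 13.7, 9.5 and 3.7 CPM in RYGB and at 14.0, 36.8, 20.3 and 20.9 CPM in sham, and it fell by 1.28 ± 0.37 (adjusted p = 0.0281). The highest RYGB library was just below the lowest sham library. Col28a1, a chain of its own class found around nerves, was at 10.2, 11.5, 10.9 and 5.9 CPM in RYGB and at 13.0, 44.2, 55.9 and 22.5 CPM in sham, and it fell by 1.55 ± 0.42 (adjusted p = 0.0213). Sham replicates 2 and 3 were the highest for Col28a1, and without sham replicate 2 the call was lost (adjusted p = 0.0593).

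Of the basement membrane chains, the most abundant were compared first. Col4a2 was at 784.5, 677.0, 818.7 and 368.1 CPM in RYGB and at 1067.3, 1562.0, 1179.2 and 1075.7 CPM in sham, and it fell by 0.93 ± 0.27 (adjusted p = 0.0276). Col4a1 was at 1177.2, 926.2, 1303.8 and 491.8 CPM in RYGB and at 1542.8, 2026.3, 1643.4 and 1516.6 CPM in sham, and was just not called (-0.87 ± 0.30, adjusted p = 0.0506). For both genes every RYGB library was below every sham library, and RYGB replicate 4 was the lowest. Col18a1 was at 178.5, 156.7, 177.4 and 73.5 CPM in RYGB and at 237.8, 286.7, 220.8 and 269.1 CPM in sham, again without overlap, and it fell by 0.86 ± 0.27 (adjusted p = 0.0351). Col4a6, an X-linked type IV chain at 0.5 to 1.7 CPM in RYGB and 1.4 to 3.2 CPM in sham, fell by 0.72 ± 0.25 with overlap (adjusted p = 0.0476). All 6 type IV genes had a negative difference, with 2 called.

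The main fibrillar chains of WAT had a wide spread. Col1a1 was at 893.0, 807.5, 1020.9 and 273.3 CPM in RYGB and at 1628.7, 3322.9, 848.1 and 865.0 CPM in sham. Col1a2 and Col3a1 followed the same libraries, with sham replicate 2 the highest at 3307.9 and 7210.7 CPM and RYGB replicate 4 the lowest at 336.4 and 376.0 CPM. The groups overlapped for all 3, and the differences of -1.07 ± 0.54, -1.05 ± 0.49 and -1.06 ± 0.70 were not called (adjusted p = 0.137, 0.113 and 0.248). Col5a1 (-1.07 ± 0.43) and Col5a2 (-0.83 ± 0.42) were not called either. Col5a3, lower in the liver, was at 652.6, 308.4, 623.6 and 88.8 CPM in RYGB and 625.3, 576.2, 256.3 and 374.6 CPM in sham WAT, with full overlap (-0.41 ± 0.61).

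The 3 common chains of collagen VI had nearly equal differences in WAT. Col6a1 was at 160.7 to 417.4 CPM in RYGB and 444.0 to 719.3 CPM in sham, and Col6a3 at 135.2 to 449.7 and 463.3 to 705.9 CPM, so that neither gene overlapped. Col6a2 was at 125.5 to 425.2 and 355.7 to 650.0 CPM, with overlap. The differences were -0.84 ± 0.31 for Col6a1, -0.82 ± 0.38 for Col6a2 and -0.85 ± 0.36 for Col6a3, and none was called. Col15a1 was at 132.9 to 538.0 CPM in RYGB and 157.6 to 590.7 CPM in sham, and its difference of 0.06 ± 0.52 turned to -0.05 with median-ratio scaling.

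Col17a1, a transmembrane collagen of the hemidesmosomes that fix keratinocytes to their basement membrane, was at 2.0, 1.5, 1.7 and 3.0 CPM in RYGB and at 24.8, 11.3, 23.5 and 1.4 CPM in sham. The high values were those of sham replicates 1 to 3, the libraries with the high keratinocyte markers, and sham replicate 4 lay below all RYGB libraries. Col17a1 fell by 1.96 ± 0.67 (adjusted p = 0.0476), but between the single libraries of the lane of sham replicate 4 it was higher in RYGB by 0.74. The call was lost without any one of the other 7 libraries (adjusted p = 0.0563 to 0.115). The part of keratinocytes was not tested.

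**Figure D4:**
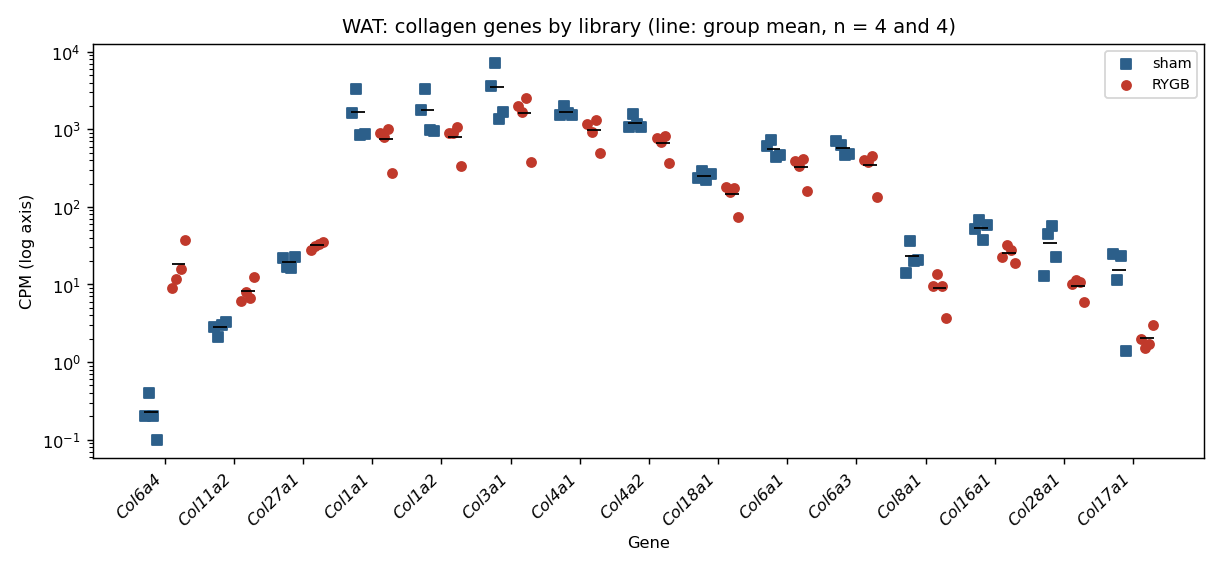
CPM of 15 collagen genes in each WAT library on a log axis, with sham as blue squares, RYGB as red circles and a line at the group mean. Col6a4, Col11a2 and Col27a1 lie higher in all RYGB libraries, most other genes lie lower, RYGB replicate 4 is the lowest point of most genes, and Col17a1 has a single low sham library.

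The number of WAT calls moved with single libraries and with lane. It was 10 in all, 4 without sham replicate 2 (3 higher and 1 lower) and 6 without sham replicate 3 (3 higher and 3 lower). Col8a1 was not called without RYGB replicate 3 or any one of sham replicates 2 to 4, and Col4a2 without RYGB replicate 2 or any one of sham replicates 2 to 4. Col18a1 kept its call only without RYGB replicate 1 or 3, and Col4a6 only without RYGB replicate 2 or sham replicate 3, among the fits that left out 1 library. With lane as a covariate 21 genes were called, 3 higher and 18 lower, Col1a1, Col1a2, Col3a1, Col4a1 and Col6a1 among the lower. The calls of all genes in this fit are not given here, so the larger count need not be particular to collagen genes. Without RYGB replicate 4 and sham replicate 2 together 4 genes were called, Col6a4 and Col11a2 higher and Col8a1 and Col16a1 lower, and this fit was chosen after these libraries had been seen.

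Genes that make and mature collagen had calls in the other direction in WAT. Of 30 genes of synthesis and maturation 7 were called lower and 0 higher, where 9.23% of all genes were called lower and 14.9% higher. Plod2, a lysyl hydroxylase that prepares crosslinks, fell by 0.89 ± 0.15 from 20.1 to 25.1 CPM in sham to 10.0 to 15.2 CPM in RYGB (adjusted p = 0.00388), and Plod1 fell by 0.82 ± 0.18 (adjusted p = 0.0115). Sparc, a collagen-binding protein of the matrix, fell by 1.22 ± 0.33 and the propeptidase Bmp1 by 0.96 ± 0.31. The median of the list was -0.56, beside 0.11 for all genes.

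Of 12 WAT genes of collagen degradation 4 fell, the uptake receptor Mrc2 by 1.54 ± 0.33 and the inhibitors Timp1, Timp2 and Timp3 by 0.89 ± 0.25, 0.87 ± 0.28 and 0.94 ± 0.25. Of 13 fibril partners 5 fell, among them Tnxb by 1.55 ± 0.40 and Postn, a matrix protein with overlapping groups, by 1.40 ± 0.37. Of 12 basement membrane partners 7 fell, among them the perlecan gene Hspg2 by 1.13 ± 0.21, Nid1 by 1.14 ± 0.29 and the laminin chain Lamb2 by 1.03 ± 0.22. Of 8 receptors 3 fell, among them Ddr2 by 0.83 ± 0.26 and Itgb1 by 0.67 ± 0.15. TGF-beta signalling had calls both ways, 1 higher and 4 lower of 16, with Ltbp2 up by 1.70 ± 0.26 and Ccn2 down by 1.45 ± 0.28 and Ltbp4 down by 1.03 ± 0.18.

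In muscle none of the 34 collagen genes was called by limma, and at an unadjusted p under 0.05 there were 3 higher and 3 lower (8.82% each, where 10.0% of all genes were higher and 4.56% lower). Col3a1 was at 247.8, 285.3, 76.4 and 58.4 CPM in RYGB and at 90.1, 293.7, 435.2 and 284.8 CPM in sham, with RYGB replicates 3 and 4 and sham replicate 1 low (-0.84 ± 0.60, adjusted p = 0.578). Col1a1 and Col1a2 overlapped at 49.8 to 180.2 and 72.0 to 232.0 CPM in RYGB and 57.4 to 159.2 and 96.7 to 214.6 CPM in sham. Their differences were -0.20 ± 0.40 and -0.27 ± 0.36.

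Within the 1 lane of muscle that held both groups, with 2 libraries each, the sign of these chains was the reverse. Col1a1 differed by 0.84, Col1a2 by 0.69, Col3a1 by 0.70, Col4a1 by 0.36 and Col6a1 by 0.63 there. The remaining sham libraries carried one lane tag and the remaining RYGB libraries another, so that for them lane and surgery cannot be told apart.

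Col8a2, Col11a1 and Col12a1 had the largest positive differences of muscle. Col12a1, a fibril-associated chain of tendon and fascia, was at 16.7, 16.7, 26.0 and 12.1 CPM in RYGB and at 12.3, 4.2, 5.2 and 15.7 CPM in sham (0.99 ± 0.37, adjusted p = 0.271). Col11a1 was at 4.7, 6.9, 6.1 and 2.4 CPM in RYGB and 3.0, 0.9, 0.8 and 3.9 CPM in sham (1.00 ± 0.37, adjusted p = 0.264). Col8a2 was at 5.3, 4.6, 7.7 and 2.3 CPM in RYGB and 2.7, 0.6, 1.0 and 2.6 CPM in sham (1.14 ± 0.35, adjusted p = 0.187). All 3 were low in sham replicates 2 and 3. The summed tendon markers, 6 of 6 listed and none at 0, were 79.3 and 71.3 CPM in those same libraries, 292 and 309 CPM in sham replicates 1 and 4, and 268 to 574 CPM in RYGB. Fmod and Thbs4 made most of that sum, with means of 108 and 68.4 CPM in sham. Scx varied little, at 1.8 to 3.7 CPM in RYGB and 2.0 to 3.2 CPM in sham (0.15). The part of tendon in these differences was not tested. Col22a1, a chain of the junction between muscle and tendon, was at 11.6 and 16.6 CPM in sham replicates 2 and 3 and at 21.9 to 35.6 CPM in the other 6 libraries.

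**Figure D5:**
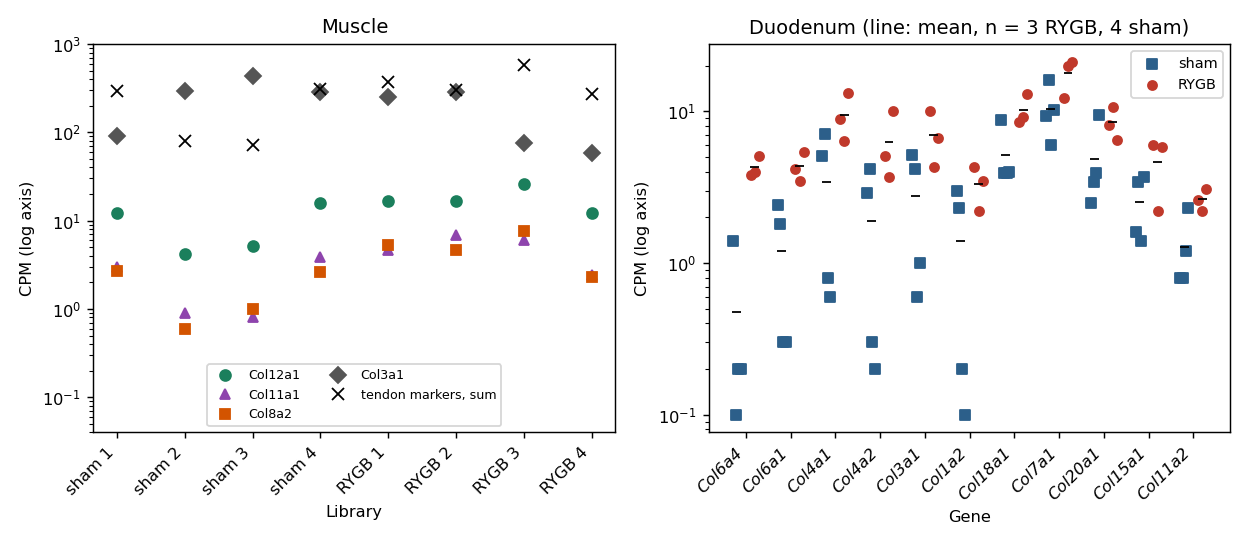
Left, CPM of 4 collagen genes and the summed CPM of 6 tendon markers in each muscle library on a log axis, where Col8a2, Col11a1, Col12a1 and the tendon sum are low in sham replicates 2 and 3 and Col3a1 is not. Right, CPM of the 11 collagen genes in each duodenal library on a log axis, with sham as blue squares, RYGB as red circles and a line at the group mean; Col6a4 and Col6a1 lie higher in all RYGB libraries.

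In the duodenum, which the bypass cuts off from food, all 11 collagen genes had a positive difference, as did 66.6% of all genes, with a median of 1.05 beside 0.12 for all genes, and none was called by limma. At an unadjusted p under 0.05 there were 8, all higher (72.7%, beside 15.0% of all genes). Col6a4 was at 3.8, 4.0 and 5.1 CPM in RYGB and at 1.4, 0.1, 0.2 and 0.2 CPM in sham, without overlap (1.92 ± 0.29, adjusted p = 0.0933). Col6a1 was at 4.2, 3.5 and 5.4 CPM in RYGB and at 2.4, 1.8, 0.3 and 0.3 CPM in sham, also without overlap (1.41 ± 0.38, adjusted p = 0.147). The background of such genes with all RYGB libraries above was 12.7% of the 10850 genes tested, and 2 of 11 collagen genes were among them.

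Sham replicates 3 and 4 of the duodenum were low in the stromal chains. Col4a1 was at 8.9, 6.4 and 13.2 CPM in RYGB and at 5.1, 7.1, 0.8 and 0.6 CPM in sham (1.55 ± 0.59, adjusted p = 0.218), and Col3a1 at 10.0, 4.3 and 6.7 CPM in RYGB and 5.2, 4.2, 0.6 and 1.0 CPM in sham (1.26 ± 0.51, adjusted p = 0.235). Sham replicate 2 alone reached into the RYGB range for Col4a1 and Col4a2, sham replicate 1 alone for Col3a1, and both for Col1a2. Col7a1 and Col20a1 did not show this split, at 9.4, 16.0, 6.0 and 10.2 CPM and at 2.5, 3.4, 3.9 and 9.5 CPM in sham replicates 1 to 4. Macrophage markers, with 3 of 6 listed, were also lowest in sham replicates 3 and 4, at 4.2 and 3.9 CPM against 10.3 to 26.2 CPM in the other 5 libraries. Of the fibroblast markers 2 of 8 were listed. Pdgfrb was at 2.4 to 3.8 CPM in RYGB and 1.1 to 9.5 CPM in sham (-0.30), and Dpp4 overlapped (0.51). Of the endothelial markers 2 of 7 were listed, Pecam1 with a difference of 0.85 and Tek with -0.32. None of these 4 genes was called, and the part of any of these cells was not tested. Without sham replicate 1 Col6a4 was called, and without sham replicate 4 Col6a4, Col11a2 and Col20a1 were. All 7 duodenal libraries carried one lane tag.

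In the jejunum 8 of 11 listed collagen genes passed the minimum of 1 CPM and none was called by limma, while at an unadjusted p under 0.05 there were 1 higher and 1 lower (12.5% each, where 10.8% of all genes were higher and 13.8% lower). Col1a2, Col6a1 and Col6a4 were at 1.8 CPM or less in every library and were not tested. Col20a1 was at 2.7, 3.9 and 3.9 CPM in RYGB and at 5.9, 5.0, 6.5 and 7.0 CPM in sham, the one gene without overlap (-0.66 ± 0.21, adjusted p = 0.0781). Genes with all RYGB libraries below made 12.5% of the 10854 tested. Col4a1 was at 0.9, 3.8 and 2.7 CPM in RYGB and at 0.0, 0.8, 0.6 and 1.2 CPM in sham (1.03 ± 0.36, adjusted p = 0.104), and RYGB replicate 1 lay inside the sham range. Without that library Col4a1 was called, with a difference of 1.41. RYGB replicate 2 alone carried another lane tag, and among the libraries of the shared tag the difference of Col4a1 was 0.74. Sham replicate 1 held 0.0 CPM of Col1a2, Col4a1, Col4a2, Col6a1 and Col6a4.

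In the ileum all 5 listed collagen genes had a negative difference, as did 61.6% of all genes, and none was called by limma. At an unadjusted p under 0.05 there were 2, both lower (40.0%, beside 18.6% of all genes). Col7a1 had a lowest, median and highest level of 6.3, 7.8 and 8.3 CPM in RYGB and of 6.9, 10.1 and 17.5 CPM in sham (-0.48 ± 0.21, adjusted p = 0.174). Col20a1 was at 4.7 to 11.9 CPM in RYGB and 7.5 to 11.4 CPM in sham (-0.44 ± 0.22, adjusted p = 0.224), and Col11a2 at 0.8 to 1.7 and 1.4 to 3.3 CPM (-0.46 ± 0.19, adjusted p = 0.147). The groups overlapped for all 5 genes. Without RYGB replicate 3 Col20a1 was called lower. No lane of the ileum held both groups, so that lane and surgery cannot be told apart there.

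Bmp1, a propeptidase that trims fibrillar procollagens, was at 13.6 to 22.1 CPM in RYGB and at 85.8 to 91.0 CPM in sham jejunum and fell by 2.36 ± 0.19 (adjusted p = 0.000414), and it fell by 0.71 ± 0.18 in the ileum (adjusted p = 0.0342). Tgfbr2, a receptor of TGF-beta, rose by 2.41 ± 0.30 in the jejunum. In the ileum Lamb3 rose by 1.37 ± 0.23, and Smad3, Itga1 and Ddr1 fell by 0.80 ± 0.20, 0.76 ± 0.21 and 0.59 ± 0.11. The collagen synthesis list had 1 call among 9 genes tested in the jejunum, 2 among 10 in the ileum and 0 among 9 in the duodenum, where no gene of the 6 lists was called. Of all genes tested, 4.62% were called higher and 5.13% lower in the jejunum, and 1.64% and 4.42% in the ileum.

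Ratios of chains within a library do not depend on how that library was scaled. These ratios were compared for 9 pairs in liver, WAT and muscle where both genes reached a mean of 5 CPM, which gave 25 ratios. In the liver the Col5a3 to Col5a1 ratio was 1.57 to 3.03 in RYGB and 4.51 to 10.7 in sham, a log2 difference of -1.63. The Col4a1 to Col4a2 ratio was 1.79 to 2.29 in RYGB and 1.30 to 1.64 in sham (0.53), the Col1a1 to Col1a2 ratio 0.637 to 0.676 and 0.432 to 0.627 (0.29), and the Col5a1 to Col5a2 ratio 1.10 to 1.34 and 1.44 to 2.87 (-0.72). In these 4 ratios the groups did not overlap. In WAT the same was true of the Col5a1 to Col5a2 ratio, at 0.993 to 1.07 in RYGB and 1.12 to 1.31 in sham (-0.23).

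Each of these 5 ratios had an exact two-sided permutation p of 0.0286, the smallest that 4 against 4 libraries can give. None passed the correction over the 25 ratios (smallest adjusted p = 0.143), since so small a design passes it only if most ratios reach the smallest p. In WAT the Col1a1 to Col1a2 ratio was 0.812 to 0.981 in RYGB and 0.871 to 1.00 in sham, with a difference of -0.02, although both genes differed by more than 1 on the log2 scale. The Col6a1 to Col6a2 ratio was 1.38 to 1.83 in RYGB and 1.44 to 1.77 in sham liver, with a difference of 0.00.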

How the data were processed

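Messenger RNA libraries of 48 samples were made with a stranded kit. The submitters' processing notes name HTSeq and the build GRCm38; versions, aligner and strand setting were not given in the sources used here. The authors deposited 1 table per tissue with CPM values rounded to 0.1. In a first check of the values, 8 deposited columns were classed as a score and not as CPM. Repeated lines of some genes, or in the liver 12 lines with a missing value, took them out of the range of CPM. After the 12 lines were left out and 1 line was kept per Ensembl ID, all columns were CPM. Read totals are not in the tables, so depth and counting error are unknown and no interval for them is given. Value columns of no sample numbered 0.

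In each tissue, genes averaging 1 CPM or more were tested with limma 3.58.1 (R 4.3.3) on log2(CPM + 1), with empirical Bayes moderation and trend, RYGB against sham, and Benjamini-Hochberg adjustment over all genes tested there. The script was tested on simulated data. Chain ratios, with a pseudocount of 0.1, were compared by an exact permutation test over libraries. Lengths are those of the longest protein-coding GENCODE M21 transcript. The collagen genes, marker lists and pathway lists were chosen with earlier results of these data known. Named were called genes (up to 20 a tissue), the 3 largest differences where fewer were called, main chains, the 5 highest per kilobase and up to 4 called genes per list. Col6a5, Col16a1 in the liver, Col22a1, the named marker genes, Krt5 among them, and genes at 0 were named after their values were seen. Alternatives were another pseudocount, minimum, scaling, the adjusted p alone, lane, a replicate block and leaving out each library. Replicate numbers did not pair the samples: libraries of one number correlated at -0.281 to 0.389 in their deviations, and in 0 tissues did every pair exceed 0.1. One called gene of the pathway lists is not reported here.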

Additional observations from a re-analysis of the deposited data

Results flagged for a closer look

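In 8 of 127 groups of 4 or 5 libraries a single library stood apart from the others by Dixon's criterion, where chance gives about 1 in 20 groups, or 6.35. The value given is the gap to the nearest library divided by the range of the group. In WAT, RYGB replicate 4 was low for Col18a1 (73.5 CPM against 156.7 to 178.5, value 0.853), Col1a2 (336.4 against 891.3 to 1075.1 CPM, 0.839) and Col6a3 (135.2 against 380.2 to 449.7 CPM, 0.860). In the liver, RYGB replicate 3 was high for Col5a1, at 24.8 against 13.2 to 14.0 CPM (0.908). In muscle, sham replicate 1 was low for Col6a2, at 32.2 against 65.5 to 73.6 CPM (0.858). In the duodenum, sham replicate 1 was high for Col18a1, at 8.8 against 3.9 to 4.0 CPM (0.971), and for Col6a4, at 1.4 against 0.1 to 0.2 CPM (0.888). In the ileum, RYGB replicate 1 was high for Col18a1, at 2.2 against 1.2 to 1.4 CPM (0.768).

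In 5 cases, a collagen gene had all RYGB libraries above all sham libraries in one tissue and below them in another. The difference between tissues was not tested. Of all genes tested, 13.4% lay above and 3.05% below in the liver, 26.1% and 15.0% in WAT, and 12.7% and 2.93% in the duodenum. The share of all genes with such opposite cases was not counted. Col4a1 differed by 1.10 in the liver and -0.87 in WAT, which are 1.97 apart on the log2 scale. Col6a3 differed by 1.02 and -0.85 (1.87 apart) and Col6a1 by 0.82 and -0.84 (1.66 apart) in the same tissues. Col6a1 in the duodenum, at 1.41, was 2.25 from WAT. Col27a1 had the other order, with -1.20 in the liver and 0.69 in WAT (1.89 apart).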

How the results depend on the processing

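Of 72 differences of named collagen genes, 56 kept their sign under every alternative run and 16 did not. Of 17 calls, 5 held under every change of pseudocount, scaling, lane, replicate block and left-out library. These were Col5a3 and Col27a1 in the liver and Col6a4, Col11a2 and Col16a1 in WAT. At a minimum of 10 CPM, Col6a4 and Col11a2 in WAT were not tested, because their means were lower. Median-ratio scaling gave 4 liver calls in place of 7 and turned Col15a1 in WAT to -0.047, Col4a2 in muscle to -0.034 and Col18a1 in the ileum to 0.028. Lane as a covariate gave 21 WAT calls in place of 10, without the calls of all genes beside them, and turned Col15a1 in WAT to -0.503. In muscle it turned Col15a1 and Col18a1 to 0.645, Col1a1 to 0.842, Col1a2 to 0.693, Col3a1 to 0.704, Col4a1 to 0.357, Col5a1 to 0.374, Col5a2 to 0.431, Col6a1 to 0.631, Col6a2 to 0.545 and Col6a3 to 0.419. These muscle values are the differences within the 1 lane that held both groups, with 2 libraries each, and are not separate evidence from them. A pseudocount of 0.1 turned Col15a1 in the jejunum to -0.070. The causes were not tested. Leaving out 1 library gave 2 to 10 calls in the liver, 4 to 9 in WAT, 0 to 3 in the duodenum, 0 to 1 in the jejunum (1 without RYGB replicate 1) and 0 to 1 in the ileum (1 without RYGB replicate 3). In WAT Col15a1 then went as low as -0.270, with a change of sign, and Col3a1 as low as -1.400, without one. Only without RYGB replicate 4 and sham replicate 2 together was Col15a1 at 0.667 and Col3a1 at 0.007. Col3a1 in WAT is among the 16 through that fit alone. That fit was chosen after seeing the data and gave 4 calls. In muscle, differences of both signs arose with 1 library left out. They ranged from -0.517 to 0.044 for Col15a1, -0.374 to 0.134 for Col18a1, -0.521 to 0.091 for Col1a1 and -0.556 to 0.002 for Col1a2. The range was -0.202 to 0.142 for Col4a1, -0.097 to 0.228 for Col4a2, -0.298 to 0.108 for Col6a1 and -0.445 to 0.022 for Col6a2. In the jejunum Col15a1 ranged from -0.313 to 0.376 and in the ileum Col18a1 from -0.134 to 0.017. A minimum of 10 CPM left no collagen gene to test in the jejunum and ileum and 1 in the duodenum. No chain ratio passed the threshold under its alternatives.

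With the replicate number as a block, 10 collagen genes were called in the liver, 12 in WAT, 2 in the jejunum (Col4a1 and Col4a2) and 0 in muscle, duodenum and ileum. The samples share only a number, and this pairing was not used in the report. Genes near 0.1 CPM, the step of the values, as in the villi and for Col6a4 in sham WAT, rest on few reads at an unknown depth.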
